A study of Mus musculus with 42 samples.

Results

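The ligands of the epidermal growth factor (EGF) family and their ERBB receptors were followed by 9 genes, chosen by symbol: the ligand genes Areg, Ereg, Hbegf, Tgfa, Epgn and Btc and the receptor genes Egfr, Erbb2 and Erbb3. All 9 were listed in each of the 9 tables of the series, which together list 20449 genes, and 13535 to 15900 genes were tested in a table. RNA was sequenced from 36 libraries of mouse colon crypts and 6 of colon tumors, under 14 conditions. The mice were on a C57/BL6 background, at least 8 weeks old, and came from separate colonies bred from heterozygotes. In the null colony, mice that lack Mtg16 in the whole body (Mtg16-/-) were compared with WT littermates. In the T/T colony, mice with a CRISPR-made change of proline to threonine at residue 209 of MTG16 (P209T, Mtg16 T/T), which weakens its binding to the E proteins E2A and HEB, were compared with their own WT littermates. Crypts, freed with EDTA and shaking, came from the 5 cm of colon nearest the cecum (proximal) or the anus (distal). Proximal crypts gave 2 libraries for each genotype of each colony. Untreated distal crypts gave 4 Mtg16-/- and 4 WT libraries in the null colony and 4 Mtg16 T/T and 3 WT libraries in the T/T colony. Distal crypts were also taken after injury and repair, with 2% dextran sulfate sodium (DSS) for 5 days and then 4 days of water, which gave 4 Mtg16-/- and 3 WT libraries in the null colony and 3 Mtg16 T/T and 3 WT libraries in the T/T colony. The tumors, homogenized whole, gave 3 Mtg16 T/T and 3 WT libraries and came from mice given 10 mg/kg azoxymethane (AOM) and then 3 cycles of 3% DSS, each with 4 days of DSS and 16 days of water. The labels do not say that each library is a separate animal, so the p-values measure the spread between libraries, which may be partly technical.

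EGF family ligands are made as membrane proteins, and sheddases such as ADAM17 release them by cutting. A ligand binds EGFR, or in some cases ERBB4, and makes the receptor pair with a family member. ERBB2 has no known ligand of its own and serves as a partner, while ERBB3 has a very weak kinase and binds neuregulins. The paired receptors signal through RAS and ERK, which induce early response genes and also feedback inhibitors that dampen the signal. In the gut, EGFR signaling drives crypt cell proliferation, and amphiregulin, epiregulin and other ligands are made by crypt epithelium, myeloid cells and the underlying mesenchyme.

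The 38 libraries for which whole reads could be recovered had between 32231389 and 74661922 reads in genes, with a median of 46659625. Cbfa2t3, which encodes MTG16, had 7.48 to 24.0 reads per 1000000 reads (RPM) in Mtg16-/- libraries, 23.0 to 63.9 in WT and 33.8 to 66.4 in Mtg16 T/T. The highest untreated distal Mtg16-/- library, labelled replicate 2, overlapped the lowest WT library there. The summed level of 10 colon epithelium markers, including Epcam, Cdh1 and Vil1, was 15201 to 25622 RPM in crypts, and all 10 had reads in each condition. Library names open with a number, and DSS crypts, tumors and untreated crypts never share it, so its part in comparisons between them cannot be told apart from the treatment.

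One library went against its segment label. Of 406 genes that part distal from proximal WT crypts (groups that do not overlap, and a difference of mean log2(RPM + 1) above 2), 390 were nearer to the proximal than to the distal WT mean in the library labelled distal Mtg16-/- replicate 2. That count was 4 to 8 in the other 3 untreated distal Mtg16-/- libraries, 1 to 10 in distal Mtg16 T/T, 395 to 403 in proximal mutant crypts and, after DSS, 60 to 120 in distal mutant and 9 to 56 in distal WT crypts, higher in each mutant library than in each WT library of its colony. Hoxb13, a homeobox gene of the hindmost body, had 5.38 RPM in this library, 397 to 509 in the other 3 and 0.323 to 0.716 in proximal Mtg16-/- crypts. Its myeloid markers summed to 57.2 RPM (242 to 388 in the other 3) and its T and B cell markers to 77.4 (20.51 to 27.1), levels within or beside those of proximal crypts (57.5 to 96.5 and 56.6 to 104). Comparisons that hold it are given with and without it, a choice made after the data were seen.

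Transcripts of the receptor genes Erbb2 and Erbb3 were more abundant than those of Egfr and of each ligand. Per kilobase of transcript, the median over the 42 libraries was 51.8 RPM for Erbb3 and 44.9 for Erbb2, against 4.50 for Egfr. Among the ligands, the same measure was 11.8 for Areg (amphiregulin), 9.66 for Tgfa (transforming growth factor alpha), 7.04 for Hbegf (heparin-binding EGF-like growth factor) and 1.78 for Btc (betacellulin). It was 0.126 for Ereg (epiregulin) and 0.108 for Epgn (epigen), which were thus barely detected in most crypts. The 6 ligands made up 8.74% to 23.0% of the summed RPM of the 9 genes in crypt libraries and 29.5% to 37.8% in tumors.

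Of the genes with reads in every library, Ereg varied most, from 0.0402 RPM in a WT library after DSS to 68.2 in a WT tumor, a ratio of 1698. Its lowest level rests on few reads, so the size of that ratio is uncertain. The receptors varied least, with the highest library over the lowest at 2.37 for Erbb2, 2.45 for Erbb3 and 3.01 for Egfr. For Areg that ratio was 9.39, and for Btc it was 20.0. Epgn was at 0 in 1 library, an untreated distal Mtg16 T/T library.

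The mean RPM of Areg placed WT tumors first, at 31.5 ± 5.47 (SD, n = 3), followed by Mtg16 T/T tumors at 24.5, Mtg16-/- crypts after DSS at 21.6, untreated distal Mtg16-/- crypts at 21.01 (25.6, ahead of Mtg16 T/T tumors, without the library labelled replicate 2) and Mtg16 T/T crypts after DSS at 20.3. The next condition, untreated distal WT crypts of the null colony, had 13.1 ± 1.64 (SD, n = 4), and this was the only step in the order at which neighboring conditions did not overlap. It parts those neighbors only. Untreated distal Mtg16-/- crypts, above the step, and WT crypts after DSS of the null colony, below it, overlapped conditions across it. Below it came WT crypts after DSS of the null colony (12.2), proximal WT (11.6) and Mtg16-/- (11.4) crypts of the null colony, untreated distal WT (11.1) and Mtg16 T/T (10.5) crypts of the T/T colony, and WT crypts after DSS of the T/T colony (9.60). Proximal Mtg16 T/T and WT crypts of the T/T colony were last, with 7.40 and 7.25.

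Ereg had 54.9 ± 21.6 RPM in WT tumors and 46.0 ± 9.89 in Mtg16 T/T tumors (SD, n = 3 each), and its other 12 conditions lay between 0.158 and 2.25, with the 4 proximal conditions on top. Btc was highest in Mtg16 T/T tumors (15.7) and WT tumors (14.5) and lowest in WT crypts after DSS of the T/T colony (2.23). Egfr was highest in WT tumors (88.4) and Mtg16 T/T tumors (75.1), which did not overlap each other or the next condition, though 1 Mtg16 T/T library after DSS (71.5) lay above the lowest Mtg16 T/T tumor (70.3). Erbb2 and Erbb3 had their lowest means in the same tumors, with 135 and 130 RPM for Erbb2 and 203 in each genotype for Erbb3. Epgn was highest in proximal WT crypts of the T/T colony, at 0.847 RPM. Neighbors in the order overlapped at 13 of 13 steps for Hbegf and Tgfa and at 10 to 12 of 13 for the others, except that without the library labelled distal Mtg16-/- replicate 2 it was 13 of 13 for Erbb2.

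**Figure D1:**
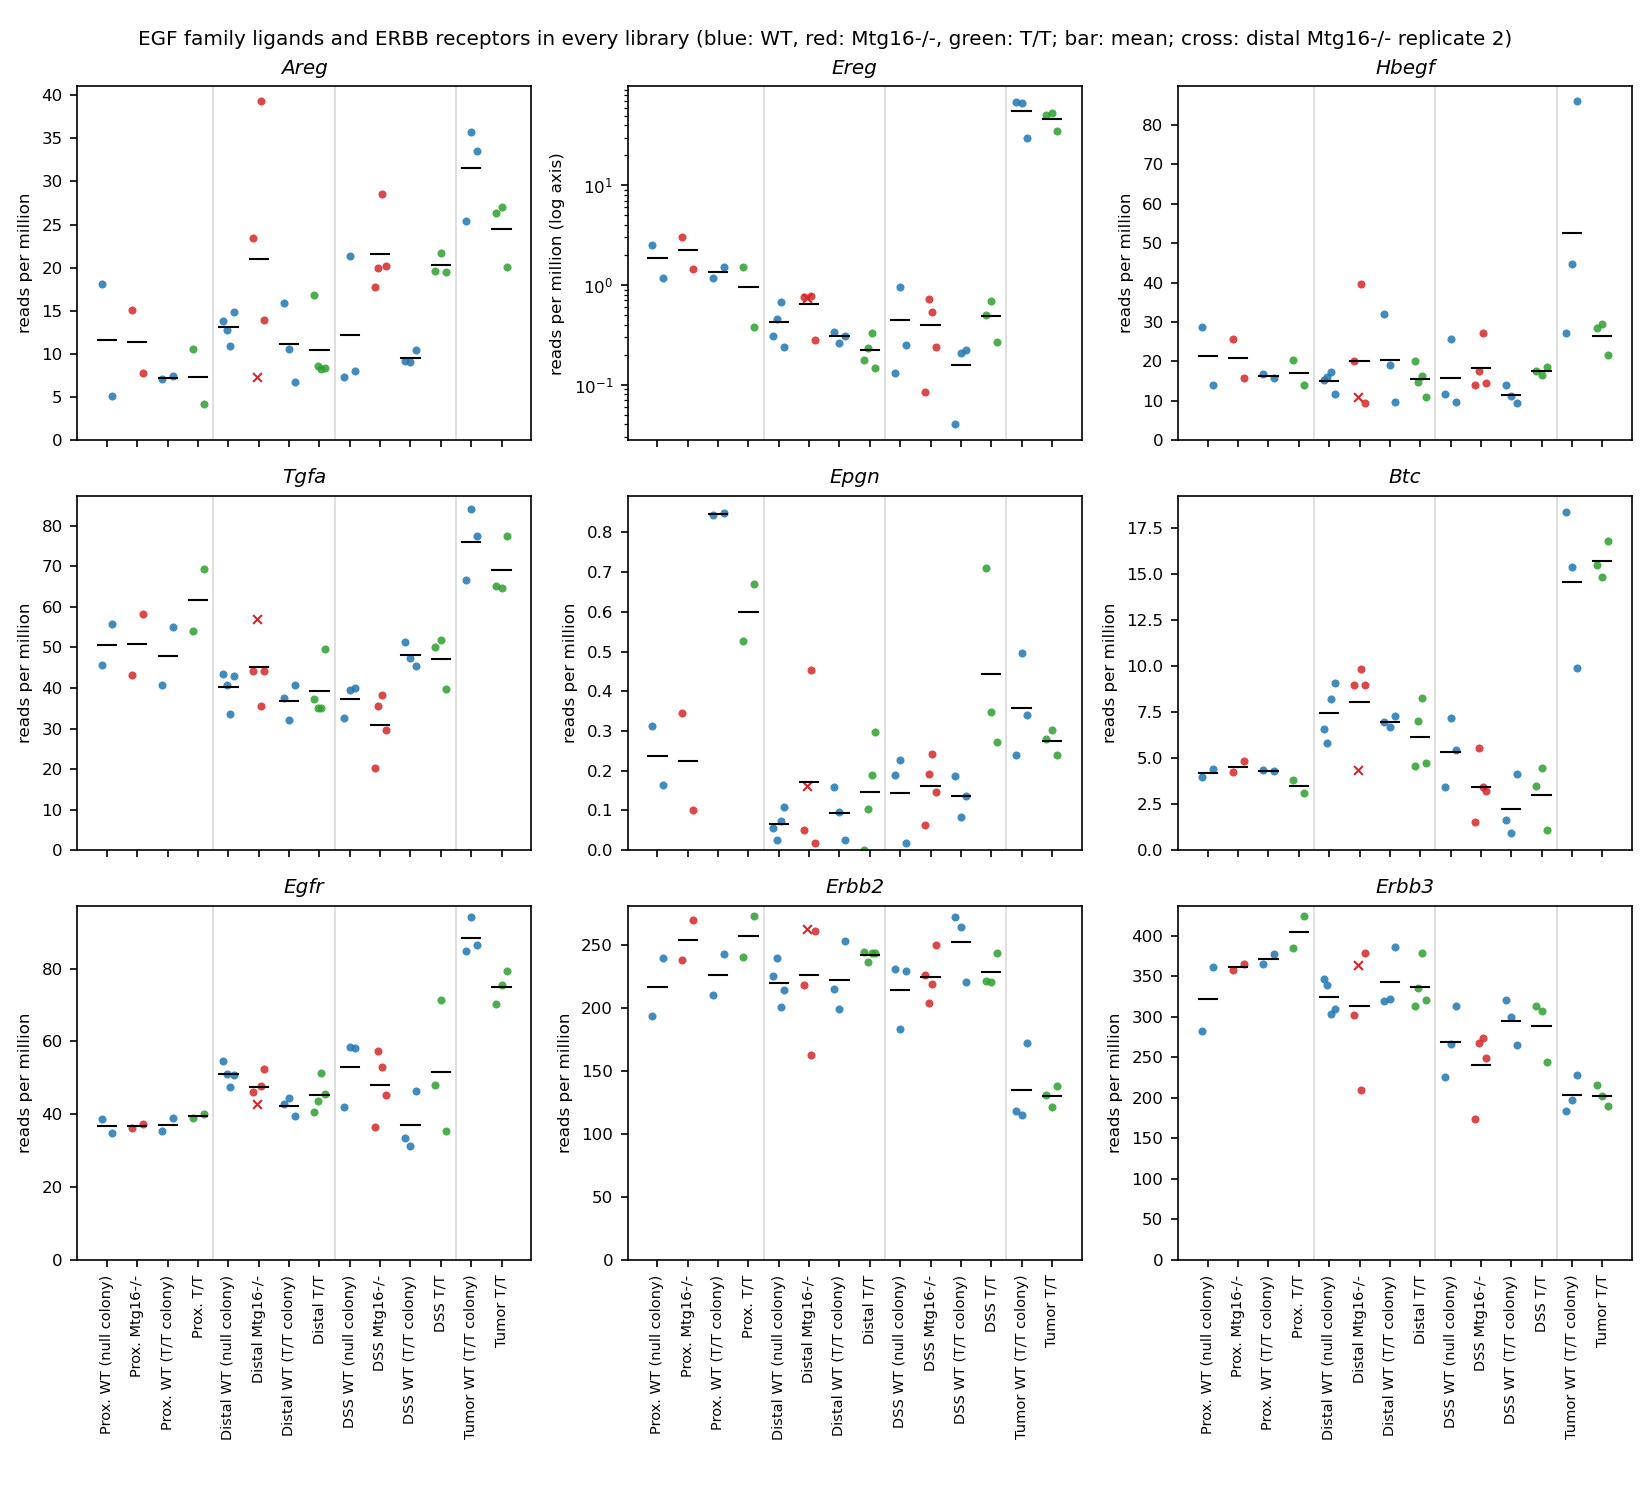
RPM of the 9 genes in each of the 42 libraries, by condition, on a linear axis except for Ereg, which has a log axis (blue, WT; red, Mtg16-/-; green, Mtg16 T/T; bars, means). The cross is the library labelled distal Mtg16-/- replicate 2, and the means of the tumors stand at the top for Ereg, Btc and Egfr and at the bottom for Erbb2 and Erbb3.

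Epgn, Ereg, Areg and Btc are neighbors on mouse chromosome 5 (GRCm38), between 91027464 and 91402994, with the first 3 on the plus strand and Btc on the minus strand. Over the 36 crypt libraries Pearson's r was 0.06 for Areg and Ereg, 0.11 for Areg and Btc and 0.12 for Ereg and Btc, as a description of libraries that share genotypes and treatments. Over all 42 libraries it was 0.52, 0.41 and 0.68, and Epgn was too low for this measure. The promoters of 3 of them, with no entry used for Ereg, are shown from RefSeq (GRCm38.p6) because adjacent ligand genes differ there. They run from 250 bases before to 50 after the start site. The entries are 300 bases each, read along the gene's strand, at chr5:91139349-91139648 for Areg, chr5:91027267-91027566 for Epgn and chr5:91402945-91403244 for Btc, and capitals mark the TATA box, the cAMP response element and the GC box, with letters given after them, on either strand:
Areg: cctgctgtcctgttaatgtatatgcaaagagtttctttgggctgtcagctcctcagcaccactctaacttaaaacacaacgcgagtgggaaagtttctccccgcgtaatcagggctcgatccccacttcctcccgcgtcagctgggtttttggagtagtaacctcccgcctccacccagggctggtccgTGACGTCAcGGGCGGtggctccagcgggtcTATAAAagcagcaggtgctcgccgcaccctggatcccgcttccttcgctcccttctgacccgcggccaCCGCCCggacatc
Epgn: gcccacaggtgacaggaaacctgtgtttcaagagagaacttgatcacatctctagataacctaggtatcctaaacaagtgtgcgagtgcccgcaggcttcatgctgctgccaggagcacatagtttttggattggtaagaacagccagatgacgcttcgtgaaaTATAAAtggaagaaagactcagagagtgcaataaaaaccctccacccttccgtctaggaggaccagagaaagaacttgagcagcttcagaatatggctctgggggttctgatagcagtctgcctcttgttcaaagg
Btc: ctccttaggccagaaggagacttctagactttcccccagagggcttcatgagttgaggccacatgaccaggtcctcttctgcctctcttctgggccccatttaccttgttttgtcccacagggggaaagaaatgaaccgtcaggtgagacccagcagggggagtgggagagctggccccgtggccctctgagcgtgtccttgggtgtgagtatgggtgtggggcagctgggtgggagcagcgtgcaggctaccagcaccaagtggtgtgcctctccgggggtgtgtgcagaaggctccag

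The TATA box was searched as TATAAA. It begins 31 bases before the start site in Areg and 86 bases before it in Epgn, and 13.6% of 32851 mouse promoters of this length hold it. The cAMP response element was searched as TGACGTCA. It begins 61 bases before the start in Areg, and 1.79% of all promoters hold it. The GC box was searched as GGGCGG. It lies beside that element in Areg and again at base 38 of the transcribed part, and 35.7% of all promoters hold it. Btc has none of these. The E-box, to which E proteins bind, was searched as CANNTG and occurs 2 times in Areg, 3 times in Epgn and 4 times in Btc, where 72.3% of all promoters have it. The entries of Tgfa, Egfr and Erbb2 hold 1, 0 and 1 E-boxes. The AP-1 site, searched as TGANTCA, was found in 0 of the 6 entries used and in 7.81% of all promoters. No entry was used for Ereg, Hbegf or Erbb3, so these genes are not covered. Member entries on chromosome 18, where Hbegf lies, were left out before the search. None of the matches in the 6 entries overlap, and each is a description of letters, not of binding.

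Distal and proximal crypts of WT mice were compared to see which ligands mark a colon segment, in 7 distal and 4 proximal libraries of both colonies. Values within a table are normalized counts, that is, reads divided by a size factor per library. Changes are differences of log2(normalized count + 1), and a gene is called at an adjusted p (limma, Benjamini-Hochberg over all genes tested) below 0.05. Of the 9 genes, 5 were called, where 42.1% of all genes were. Epiregulin, epigen and TGF-alpha transcripts were lower in distal crypts, and those of betacellulin and EGFR were higher.

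Ereg had 54.8, 69.6, 109 and 56.2 normalized counts in the proximal libraries and from 11.2 (median 14.1) to 29.6 in the distal ones. Each proximal library lay above each distal one. The means were 72.4 ± 25.3 (SD, n = 4) and 16.4 ± 6.54 (SD, n = 7), with a log2 difference of -2.09 (SE 0.29, adjusted p = 6.05e-05). Epgn had 39.3 and 38.6 in proximal crypts of the T/T colony, 13.5 and 7.76 in those of the null colony and 1.13 to 6.67 (median 3.15) in distal crypts. The segments did not overlap, but the 2 colonies' proximal libraries also stood apart from each other, and so do the numbers in their library names. The log2 difference was -2.41 (SE 0.52, adjusted p = 0.00191). All distal counts of Epgn lay below the mean of 10 required for a test. Epgn passed that filter through the proximal libraries, and it was tested in 9 of 11 fits without a single library. The counts of genes called and of genes without overlap between the segments rest partly on that. Tgfa had 1898, 2502, 1979 and 2633 in proximal and 1401 to 2011 (median 1800) in distal libraries, which overlapped. It was lower in distal crypts by a log2 difference of -0.39 (SE 0.12, adjusted p = 0.0201), and the call was lost without replicate 2 of either colony's proximal WT crypts (-0.33 and -0.31).

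Btc had 203, 194, 173 and 209 normalized counts in proximal and 257 to 425 (median 298) in distal libraries, with no overlap. Its distal mean was 1.65 times the proximal one (321 ± 55.2 against 195 ± 15.9, SD), a log2 difference of 0.71 (SE 0.13, adjusted p = 0.000713). Egfr had 1644, 1768, 1679 and 1644 in proximal and 1771 to 2474 (median 2065) in distal libraries. These did not overlap, though the highest proximal and the lowest distal library were close, and the log2 difference was 0.31 (SE 0.09, adjusted p = 0.0172). Some libraries favor long or short transcripts, and once each library's trend with transcript length was removed Egfr had 0.19 (adjusted p = 0.055). In 4 of the 9 genes (Ereg, Epgn, Btc and Egfr) the segments did not overlap, against 30.0% of all genes tested.

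Areg had 786 normalized counts in 1 proximal library and 241 to 338 in the other 3, against 301 to 695 in distal crypts. Its log2 difference of 0.46 was not called (SE 0.29, adjusted p = 0.222), but without that proximal library, replicate 1 of the null colony, it was 0.81 and was called. Hbegf (-0.19, adjusted p = 0.581), Erbb2 (-0.04, 0.752) and Erbb3 (-0.10, 0.473) also did not pass. Leaving out single libraries gave 3 to 6 called genes, with 3 when replicate 2 of the proximal WT crypts of the T/T colony was left out. Among libraries whose names open with 4149, 2 of each segment, only Btc was called (1.03, adjusted p = 0.0322), while Ereg had -2.04 (0.0775), Tgfa -0.41 (0.288) and Egfr 0.42 (0.0912), and Epgn was too low to test. Over all 20 alternative fits Ereg lay between -2.24 and -1.88.

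**Figure D2:**
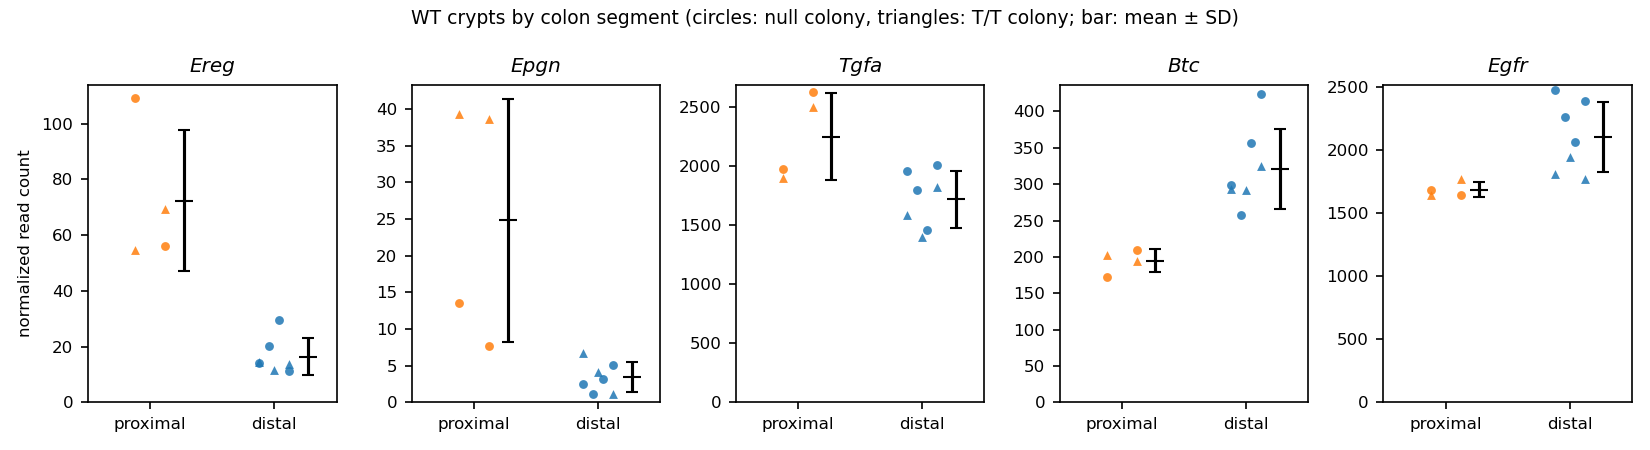
Normalized counts of Ereg, Epgn, Tgfa, Btc and Egfr in WT proximal and distal crypts (circles, null colony; triangles, T/T colony; bars, mean ± SD). Ereg, Epgn and Tgfa were lower and Btc and Egfr higher in distal crypts, with overlap only for Tgfa.

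Other genes of the pathway were read as lists drawn up by role. Counts called in these lists and in the cell markers stand against 42.1% of all genes, in either direction. Of the feedback inhibitors, 12 of 18 were higher in distal crypts and 1 lower, with a median log2 difference of 0.40, against 0.00 over all genes. Spry4, a Sprouty protein that blocks RAS activation, had 249 ± 104 in distal and 73.5 ± 21.3 in proximal crypts (log2 1.66, adjusted p = 0.00091). Dusp6, a phosphatase of ERK, had 2804 and 1347 (1.10, 0.00388). Errfi1, an inhibitor that binds EGFR itself, was the member that fell (-0.56, 0.000728). Early response genes split, with 5 of 17 higher and 6 lower and a median of -0.28. Among them Etv4 rose toward distal crypts (677 against 120, log2 2.52) and its relative Etv5 fell (585 against 1828, -1.67). Of 10 genes for shedding of ligands, 4 were higher, including the rhomboid protease Rhbdl2 (3846 against 1102) and the metalloproteinase inhibitor Timp3, and 3 lower, including Adam19 and Adam8. Egf itself was lower in distal crypts (186 against 373, log2 -1.02, adjusted p = 7.37e-05), as was the neuregulin gene Nrg4. Of 17 relay genes, such as Mapk3 (-0.38), 1 rose and 2 fell. Markers of T and B cells moved with Ereg and Epgn: 5 of 9 were lower in distal crypts, with a summed level of 65.9 to 104 RPM in proximal and 12.8 to 38.1 in distal WT libraries. Plasma cell markers were lower too (3 of 3 tested, median log2 difference -1.09), with sums of 10.2 to 37.4 and 5.77 to 18.2 RPM. Fibroblast markers were lower in 2 of 5 and higher in 0 (median -0.64), with sums of 7.14 to 12.8 and 2.87 to 6.59 RPM. Myeloid markers moved the other way, with 5 of 8 higher and 1 lower and sums of 71.2 to 81.4 and 239 to 338 RPM. The part of these cells was not tested.

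Loss or mutation of Mtg16 called none of the 9 genes in untreated crypts of either segment. In proximal Mtg16-/- crypts the log2 differences ran from -0.22 for Epgn to 0.29 for Ereg (smallest adjusted p 0.908), where 0.0645% of all genes were called. In distal Mtg16-/- crypts, 0 of 8 genes tested were called, against 0.239% of all (1.04% without the library labelled replicate 2, and again 0 of 8), and in distal Mtg16 T/T crypts 0 of 8 against 0.0369%, with log2 differences from -0.49 for Ereg to 0.09 for Erbb2. In proximal Mtg16 T/T crypts it was 0 of 9 against 0.232%, and the largest differences were -0.79 for Ereg, -0.49 for Epgn and 0.37 for Tgfa (adjusted p 0.638, 0.627 and 0.455). With 2 libraries a genotype, 5 of the 9 genes did not overlap there, as did 45.5% of all genes. With all libraries, 0 of the 9 genes had an unadjusted p under 0.05, as 5.96%, 4.63%, 4.65% and 12.0% of all genes did (in the order given), and edgeR and DESeq2, where reads could be recovered, also called 0. Smooth muscle markers had a median log2 difference of 2.89 in proximal Mtg16-/- and 2.54 in proximal Mtg16 T/T crypts. In each, 0 of 6 were called, and only the higher of the 2 mutant libraries lay above WT. The sums were 1.19 and 77.4 RPM in Mtg16-/- (1.44 and 1.85 in WT) and 0.814 and 31.5 in Mtg16 T/T (0.823 and 0.956 in WT). The part of this tissue was not tested.

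Areg in distal Mtg16-/- crypts had 1074, 334, 1721 and 641 normalized counts, against 638, 580, 490 and 711 in WT. The lowest, 334, was the library labelled replicate 2, whose segment genes were at proximal levels. With it the SD was 601, against 93.4 in WT, and the log2 difference was 0.40 (SE 0.44, adjusted p of 1). Without it the mean was 1145.5 ± 544 (SD, n = 3), against 605 ± 93.4 (SD, n = 4) in WT, and the log2 difference was 0.82 (SE 0.29, adjusted p = 0.529). Replicate 4 still lay within the WT range, and the unadjusted limma p of Areg was then 0.0208. Without replicate 3, at 1721, and with the library labelled replicate 2 kept, the log2 difference was 0.03. Within libraries whose names open with 4149 it was 0.83, and within those that open with 5094, which hold the library labelled replicate 2, it was -0.02 (2 libraries a genotype in each). Replicate 3 of the Mtg16-/- crypts was highest not only in Areg but also in Hbegf, at 1733 where the other 3 had 440 to 919. It was also the lowest of its genotype in Tgfa (1562), Erbb2 (7119) and Erbb3 (9168). Ereg had 34.8, 33.5, 34.1 and 13.1 in Mtg16-/- and 14.4, 20.8, 30.4 and 11.5 in WT crypts, so 3 of 4 Mtg16-/- libraries were above all WT ones (2 of 3 without the library labelled replicate 2). The log2 difference of 0.55 (SE 0.43; 0.45 without the library labelled replicate 2) did not pass. In distal Mtg16 T/T crypts, Areg had 637, 339, 331 and 345, against 634, 436 and 278 in WT, with no gap between the genotypes.

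After DSS, amphiregulin transcripts had a higher mean in crypts of each mutant than in their WT littermates, without passing the test over all genes. In Mtg16 T/T crypts Areg had 921, 1072 and 1004 normalized counts, against 484.9, 484.8 and 526.4 in WT littermates. All 3 mutant libraries lay above all 3 WT libraries. The means were 999 ± 75.5 and 499 ± 24.0 (SD, n = 3 each), a ratio of 2.00, with a log2 difference of 1.00 (SE 0.18, 95% confidence interval 0.57 to 1.43, adjusted p = 0.174). DESeq2 on recovered reads called it (log2 1.00, adjusted p = 0.00019), and edgeR did not (1.02, adjusted p = 0.21). No gene of the table was called, so 0 of the 9 stood against 0% of all genes, while 8.77% of genes had an unadjusted p under 0.05, 3 of the 9 among them.

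Those 3 were Areg, Ereg and Epgn. Ereg had 23.6, 34.3 and 14.0 in Mtg16 T/T and 2.12, 11.2 and 11.2 in WT crypts (log2 1.61, SE 0.65, adjusted p = 0.56). Epgn had 33.3, 17.2 and 14.0 against 9.88, 4.46 and 6.89 (1.44, SE 0.47, adjusted p = 0.432). All WT counts of Epgn lay below the mean of 10 required for a test, and those of Ereg lay near or below it. Both thus passed that filter through the Mtg16 T/T libraries. The counts of ligands given here and the ligand median below rest partly on that. Hbegf had 819, 823 and 957 against 735, 596 and 470 (0.55, SE 0.23, adjusted p = 0.571). In these 4 ligands each mutant library was above each WT library, as in 5.66% of all genes. Tgfa (-0.11) and Btc (0.40) overlapped, as did Egfr (0.36), Erbb2 (-0.22) and Erbb3 (-0.12). The median over the 6 ligands was 0.77, against 0.03 over all genes, and that of the 3 receptors was -0.12. The libraries also differed in their trend with transcript length, from -0.225 to 0.310 log2 units per doubling of length, and with the trend removed Areg had 1.06. Plasma cell markers summed to 9.67 to 14.2 RPM in Mtg16 T/T and 4.38 to 7.42 in WT crypts (median log2 difference 1.02), and T and B cell markers to 10.9 to 15.1 and 8.64 to 9.90 (0.62), so both were apart in the same direction as these ligands. Sums of myeloid (255 to 384 against 297 to 377, median 0.89) and fibroblast markers (4.44 to 18.8 against 5.47 to 9.68, median 0.60) overlapped. No marker in these 4 lists was called. Squamous epithelium markers summed to 16.1 to 28.4 RPM in Mtg16 T/T and 8.92 to 17.9 in WT crypts, which overlapped. Of the 406 segment genes, 60 to 120 were nearer to the proximal mean in Mtg16 T/T and 9 to 56 in WT libraries. The part of these cells and of segment identity was not tested.

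In Mtg16-/- crypts after DSS, Areg had 1014, 1055, 1600 and 1160 normalized counts, against 417, 1189 and 432 in WT littermates. WT replicate 2 lay within the mutant range and the other 2 below it. The log2 difference was 0.99 (SE 0.35, interval 0.19 to 1.78, adjusted p = 0.274), and 0 of 8 genes were called, where 0.629% of all genes were. Areg was the only one of the 8 with an unadjusted p under 0.05, as 12.4% of all genes had, and edgeR and DESeq2 called 0. Without WT replicate 2 the difference was 1.48 and passed (adjusted p = 0.045). That library was also the highest WT library in Ereg (52.8, where the other 2 had 7.57 and 13.7) and in Hbegf (1425, where they had 678 and 523). Btc had 88.1, 293, 192 and 185 in Mtg16-/- and 195, 399 and 294 in WT crypts (-0.70, adjusted p = 0.545), with overlap. Myeloid markers here had a median log2 difference of 1.93 with 1 of 10 called higher, plasma cell markers 1.56, fibroblast markers 1.34 and T and B cell markers 1.06, with 0 called, and mast cell markers -0.84 with 1 of 5 called lower. Squamous epithelium markers summed to 328 to 854 RPM in Mtg16-/- and 261 to 402 in WT crypts, which overlapped. Mtg16-/- replicate 3, the highest in Areg, also had the highest sums of myeloid (715 RPM), fibroblast (89.2) and T and B cell markers (43.8). Of the 406 segment genes, 72 to 109 were nearer to the proximal mean in Mtg16-/- and 14 to 32 in WT libraries. The part of these cells and of segment identity was not tested.

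Whether a genotype effect differed between settings was tested directly, in 6 tests over the genes of both tables, and 0 of 8 genes were called in any of them (limma). The tests compared the null allele's effect between segments and between DSS and baseline, P209T's effect likewise, and the 2 alleles at distal baseline and after DSS. They called 0.0372%, 0.00738%, 0.0229%, 0.234%, 0% and 0.0148% of all genes, and 3.85%, 3.37%, 4.45%, 10.8%, 2.34% and 4.62% had an unadjusted p under 0.05. Of the 8, only Areg and Ereg in the fourth test had one. Without the library labelled distal Mtg16-/- replicate 2, the tests of the null allele between segments, of the null allele between DSS and baseline and of the alleles at distal baseline called 0.0677%, 0.363% and 0.0149% of all genes and again 0 of the 8. Btc had an unadjusted p under 0.05 between DSS and baseline. Its effect of the null allele was -0.70 after DSS and 0.31 at baseline, a difference of -1.01 (SE 0.44, adjusted p = 0.64). The fourth test took the P209T effect after DSS minus that at baseline. For Areg the effects were 1.00 and -0.10, a difference of 1.10 (SE 0.38, adjusted p = 0.33), and for Ereg the difference was 2.10 (adjusted p = 0.34). The effects of the null allele and of P209T on Areg after DSS, 0.99 and 1.00, differed by -0.01 (adjusted p = 0.99). In every comparison of genotypes the lists of shedding genes, feedback inhibitors, relay genes and early response genes had 0 genes called.

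Tumors of Mtg16 T/T and WT mice were compared next, and 0 of 9 genes were called, against 0% of all genes (2.47% had an unadjusted p under 0.05, Egfr among them). Egfr had 3411, 3664 and 3771 normalized counts in Mtg16 T/T and 4114, 4514 and 4326 in WT tumors. The genotypes did not overlap, as in 5.52% of all genes, and the log2 difference was -0.26 (SE 0.09, adjusted p = 0.998). Areg had 1276, 1315 and 954 against 1231, 1715 and 1675 (-0.38), and Hbegf 1381, 1430 and 1022 against 1317, 2146 and 4303 (-0.86). Both overlapped, and the high Hbegf mean of WT tumors rested mainly on replicate 3. That library also had the highest WT tumor sums of squamous markers (1024 RPM, against 149 and 131) and of colon epithelium markers (14835, against 9836 and 10640). Among Mtg16 T/T tumors, replicate 2 had the highest sum of squamous markers (782 RPM, against 86.7 and 119). Its Hbegf count of 1430 was near the 1381 of replicate 1. The part of these tissues was not tested. Neither edgeR nor DESeq2 called any of the 9.

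**Figure D3:**
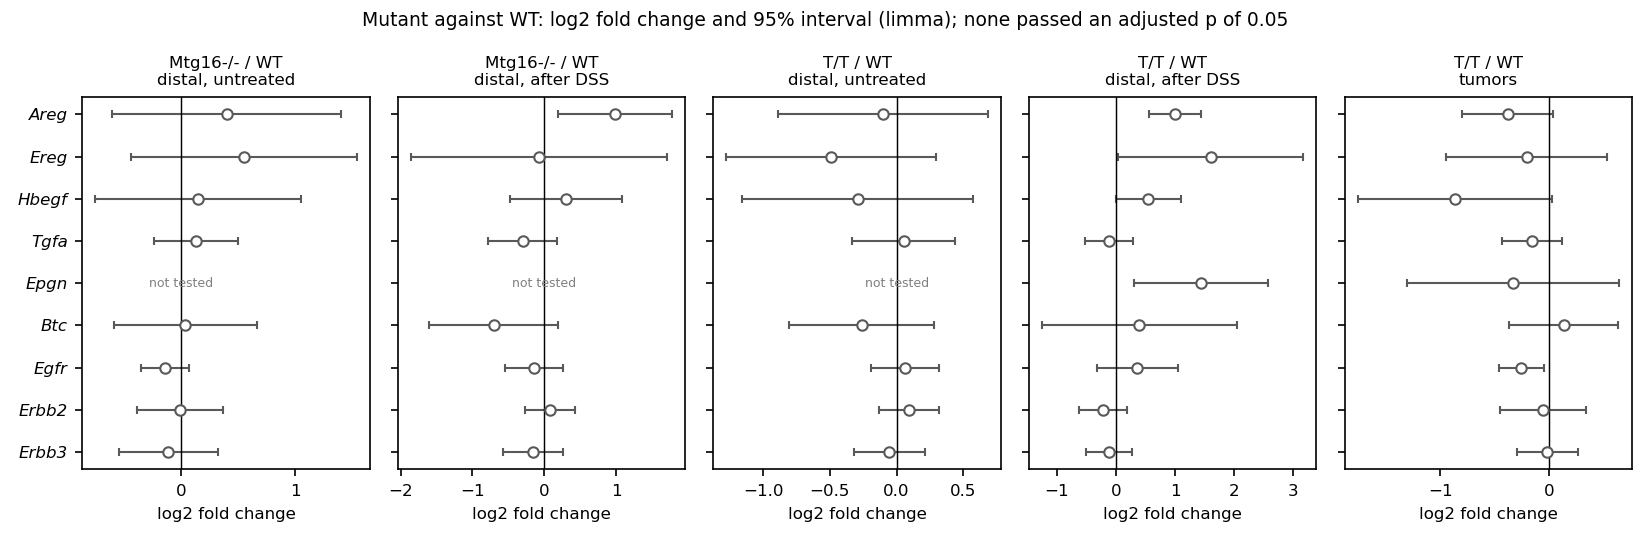
Log2 difference of mutant minus WT with its 95% confidence interval for each gene in 5 comparisons of genotypes, each panel with its own scale. None passed an adjusted p of 0.05 (open circles), and after DSS the Areg interval lay above 0 in both mutants. All libraries are in, also the library labelled distal Mtg16-/- replicate 2.

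The response to injury and repair was read as distal crypts after DSS against untreated distal crypts of the same genotype, in 4 comparisons with no library in common. Only for WT crypts of the T/T colony do both kinds of library stand in 1 table. For the others, reads recovered from 2 tables were scaled together, and log2(RPM + 0.5) was compared. RPM of genes in these comparisons carry that scaling, so they differ from the unscaled RPM given above for the same libraries. Sums of markers stay unscaled. The ligand with a like direction in all 4 was Btc, with log2 differences from -1.86 to -0.48, and it was called in 2.

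In WT crypts of the T/T colony, 2 of 8 genes were called, against 35.6% of all genes. Btc had 79.2, 45.5 and 196 normalized counts after DSS and 320, 314 and 347 before. The groups did not overlap, and the log2 difference was -1.86 (SE 0.50, adjusted p = 0.0313). Tgfa had 2493, 2339 and 2156 after DSS and 1734, 1505 and 1943 before, also apart (0.44, SE 0.14, adjusted p = 0.0485). Areg, at 446, 450 and 499 after DSS and 736, 500 and 321 before, had -0.08. With Ereg, 3 of 8 genes did not overlap, against 55.3% of all genes.

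Long transcripts counted less in 2 of these 3 DSS libraries: the trend was -0.215, -0.309 and 0.070 log2 units per doubling of length after DSS and 0.145 to 0.163 before. With that trend removed, Btc kept -1.76 and Tgfa had 0.73, but Egfr went from -0.17 to 0.71 and was called (adjusted p = 0.016). The direction for Egfr, the longest transcript of the 9, was thus not fixed, and scaling by the upper quartile gave 0.02 while it moved the median of all genes from 0.00 to 0.19. Of all genes, 1897 were called higher and 2936 lower, against 2976 and 2744 with upper-quartile scaling, 3028 and 2903 with the length trend removed and 2183 and 2204 by edgeR. Leaving out single libraries gave 0 to 4 called genes, 0 in 5 of the 6 cases and 4 without DSS replicate 3.

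In Mtg16-/- crypts, 1 of 8 genes was called, against 24.3% of all genes. Btc had 1.62, 5.27, 3.43 and 3.42 RPM after DSS and 8.89, 4.30, 9.45 and 8.95 before (log2 -1.12, SE 0.34, adjusted p = 0.0392). The groups overlapped, since the untreated library labelled replicate 2, the one at proximal segment levels, was lower than DSS replicate 2. Without it the means were 3.43 ± 1.49 (SD, n = 4) and 9.10 ± 0.307 (SD, n = 3), the groups did not overlap, and Btc alone was called, with -1.37 (SE 0.29, adjusted p = 0.00674), where 30.5% of all genes were. With that library in, the call was lost with no filter on low levels and with the replicate number as a block, and over all 8 fits without a single library it was lost in 6. Tgfa had 21.2, 33.9, 38.4 and 31.4 after DSS and 43.8, 56.2, 34.3 and 44.1 before (-0.52, adjusted p = 0.0885, and -0.40 without the library labelled replicate 2), opposite in sign to WT crypts of the T/T colony. Areg had 0.31 with that library and -0.10 without it (adjusted p = 0.815), so its direction rested on it.

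In Mtg16 T/T crypts, 0 of 9 genes were called (4.21% of all), while 4 had an unadjusted p under 0.05 (21.7% of all) and DESeq2 called 1, Areg. Areg had 19.5, 21.8 and 20.6 RPM after DSS and 16.6, 8.41, 8.11 and 8.33 before. Each DSS library was above each untreated one, and the log2 difference was 1.02 (SE 0.27, interval 0.40 to 1.64, adjusted p = 0.0773). Without untreated replicate 1, the highest of its group, it was 1.28 and passed (adjusted p = 0.020). Btc had 3.48, 4.45 and 1.14 after DSS and 4.51, 6.86, 8.08 and 4.73 before, without overlap (adjusted p = 0.194). With Areg this made 2 of 9 genes apart, against 21% of all. Ereg (0.45) and Epgn (0.55) had adjusted p of 0.201 and 0.197.

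In WT crypts of the null colony, 0 of 8 genes were called or had an unadjusted p under 0.05 (5.27% of all were called and 21.7% had such a p), and edgeR and DESeq2 called 0. Btc had 3.51, 7.12 and 5.28 RPM after DSS and 6.62, 5.77, 8.00 and 9.41 before (-0.48, adjusted p = 0.283), which overlapped. Areg had 7.52, 21.2 and 7.75 after DSS and 13.8, 12.7, 10.7 and 15.4 before (-0.26, adjusted p = 0.656). DSS replicate 2 stood above all untreated libraries and the other 2 below. Without it the difference was -0.74 and passed (adjusted p = 0.042).

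Other pathway genes were read by list after DSS too. In WT crypts of the null colony 1 of 10 shedding genes, 1 of 17 early response genes, 0 of 18 feedback inhibitors and 0 of 17 relay genes were called, where 5.27% of all genes were. Plaur, the urokinase receptor and an ERK target, rose from 3.20 to 8.01 RPM in WT of the null colony (log2 1.22, adjusted p = 0.00256), from 4.39 to 22.0 in Mtg16-/- (2.20, 0.00197) and from 4.02 to 13.1 in Mtg16 T/T (1.60, 0.0107). Adam8, a metalloproteinase of myeloid cells, rose in the same 3 (0.571 to 2.25, 0.923 to 8.47 and 0.553 to 2.61). Ccnd1, which drives entry into the cell cycle, rose from 99.1 to 246 in Mtg16 T/T. Nrg1, which encodes a ligand of ERBB3 and ERBB4, had 0.0914 RPM before and 0.907 after DSS in Mtg16-/- (adjusted p = 0.00369). Early response genes were called higher in 1 of 17 in WT of the null colony, 4 of 17 in Mtg16-/- (24.3% of all genes called, in either direction) and 5 of 15 in Mtg16 T/T (4.21% of all) and lower in none, and in WT crypts of the T/T colony in 3 of 16, with 2 lower (35.6% of all). There Adam10 and Adam17, the main ligand sheddases, were lower (2548 against 8845 and 1036 against 2447 normalized counts), in libraries with the length trend given above. Feedback inhibitors had 0 higher and 3 lower of 18 there and in Mtg16-/-. Without the library labelled untreated distal Mtg16-/- replicate 2, those Mtg16-/- counts became 6 of 17 early response genes higher and 6 of 18 feedback inhibitors lower, near the 30.5% of all genes then called, and Plaur had a log2 difference of 2.35. Squamous epithelium markers such as Krt5 summed to 261 to 854 RPM in DSS libraries of the null colony, against 6.36 to 17.5 in untreated distal crypts and 8.92 to 28.4 in DSS libraries of the T/T colony. Of the squamous markers tested, 7 of 9 rose in Mtg16-/- and 6 of 8 in WT of that colony. Myeloid markers rose in 8 of 10 in Mtg16-/-, 4 of 10 in WT of the null colony, 3 of 10 in Mtg16 T/T and 2 of 9 in WT of the T/T colony. The part of these cells in the members' values was not tested.

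In AOM/DSS tumors 4 of the 6 ligands (Areg, Ereg, Tgfa and Btc) and Egfr were higher than in crypts, and Erbb2 and Erbb3 were lower. Egfr in Mtg16 T/T turned in direction with the length trend removed. Erbb2 and Erbb3 turned in both genotypes relative to the colon epithelium markers, a scaling that by construction adds the epithelium's fall to each gene. The tumors were compared with untreated distal crypts of the same genotype, which also serve as controls for DSS and in the comparison of genotypes above. RPM of genes were again scaled over both tables, so they differ from those in the order of conditions. In each genotype 7 of 8 genes were called, against 64.4% of all genes in WT and 62.9% in Mtg16 T/T. The groups did not overlap in 7 of 8 genes in WT and 5 of 8 in Mtg16 T/T, against 70.5% and 68.2%. These shares are near the background, so the sizes and directions are what can be read.

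Ereg had 59.8, 57.8 and 26.9 RPM in WT tumors and 0.379, 0.301 and 0.358 in WT crypts. Its Mtg16 T/T levels were 44.0, 47.8 and 29.7 in tumors and 0.188, 0.256, 0.372 and 0.170 in crypts. The lowest tumor lay far above the highest crypt library in both. The ratio of means was 139 in WT and 164 in Mtg16 T/T. The log2 difference was 5.76 in each (SE 0.29 and 0.19, adjusted p = 8.89e-07 and 5.19e-07), which understates the ratio because of the 0.5 RPM added.

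Areg had 22.2, 31.05 and 30.05 RPM in WT tumors and 17.7, 12.2 and 7.79 in WT crypts, without overlap (log2 1.17, SE 0.27, adjusted p = 0.00529). In Mtg16 T/T it had 23.0, 24.4 and 17.2 in tumors and 17.7, 9.43, 9.21 and 9.58 in crypts (0.92, SE 0.25, adjusted p = 0.014), where crypt replicate 1 overlapped. That call was lost without tumor replicate 1 (0.86, adjusted p = 0.053) and without tumor replicate 2 (0.82, adjusted p = 0.0551). Btc, lower after DSS, was higher in tumors. It had 16.1, 13.4 and 8.86 RPM in WT tumors and 7.69, 7.63 and 8.42 in crypts (0.62, SE 0.21, adjusted p = 0.0306), a call lost in 5 of 6 fits without a single library. In Mtg16 T/T tumors it had 13.5, 13.3 and 14.4, against 4.80, 7.70, 9.18 and 5.44 in crypts (1.01, SE 0.22, adjusted p = 0.00462). Tgfa rose from 41.8 to 67.0 in WT (0.68, adjusted p = 0.0017) and from 43.5 to 60.5 in Mtg16 T/T (0.49, 0.0248), with overlap in the latter. The Mtg16 T/T call of Tgfa was lost in 5 of 7 fits without a single library and with the length trend removed (0.25).

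Hbegf did not pass in either genotype. It had 23.8, 38.8 and 77.2 RPM in WT tumors and 35.5, 21.9 and 11.4 in crypts (0.98, SE 0.48, adjusted p = 0.104), and 0.44 in Mtg16 T/T (adjusted p = 0.0888). Leaving out 1 library gave 0.54 to 1.38 in WT, where it passed without tumor replicate 1 (1.38, adjusted p = 0.0292) and without crypt replicate 1 (1.33, 0.0426). In Mtg16 T/T it passed without tumor replicate 3 (0.60, 0.0471) and without crypt replicate 1 (0.55, 0.0323). Epgn was too low to test, with 0.315 RPM in WT tumors and 0.105 in crypts.

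Erbb2 had 103, 100.1 and 154 RPM in WT tumors and 238, 228 and 292 in crypts. Mtg16 T/T tumors had 114, 109 and 118, and Mtg16 T/T crypts 257, 260, 271 and 280. Tumor libraries lay below crypt libraries in both, with log2 differences of -1.10 (SE 0.18, adjusted p = 0.000706) and -1.23 (SE 0.07, adjusted p = 3.62e-06). Erbb3 had 161, 171 and 205 against 353, 368 and 447 in WT (-1.12, SE 0.13, adjusted p = 0.000101). The Mtg16 T/T values were 188.5, 183 and 163 against 330, 369, 423 and 368 (-1.06, SE 0.10, adjusted p = 6.27e-05). The tumor to crypt ratio of means lay between 0.426 and 0.478 for both receptors. Egfr moved the other way, with 74.3, 81.7 and 77.6 in WT tumors and 47.4, 50.8 and 45.8 in crypts (0.69, SE 0.09, adjusted p = 0.000166). In Mtg16 T/T its tumor level was 65.8 ± 3.80 (SD, n = 3) and its crypt level 50.1 ± 6.09 (SD, n = 4), with 0.40 (SE 0.11, adjusted p = 0.0143). With the length trend removed the latter was -0.08, so its direction depended on that correction, while WT kept 0.43.

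The tumors held other tissues besides epithelium. Fibroblast markers summed to 2811 to 3842 RPM in tumors and 2.87 to 89.2 in crypts, with 8 of 8 higher. All 6 smooth muscle and 6 endothelial markers were higher too, and myeloid markers summed to 759 to 1263 RPM against 57.2 to 715, with 8 of 10 higher and 2 lower. Plasma cell markers summed to 592 to 2629 RPM in tumors and 4.38 to 47.4 in crypts. T and B cell markers summed to 69.5 to 169 in tumors and 8.64 to 104 in crypts, which overlapped. Squamous markers were higher in 8 of 9 in WT and 6 of 9 in Mtg16 T/T. Of 10 colon epithelium markers 9 were lower in both genotypes, and their sum was 9339 to 14835 RPM in tumors. Relative to that list, which was set as the reference after the data were seen, Erbb2 and Erbb3 were higher in tumors, by 0.56 and 0.55 in WT and 0.62 and 0.78 in Mtg16 T/T (all called). The median of all genes then moved from 0.06 to 1.73 in WT and from 0.13 to 1.97 in Mtg16 T/T, so both receptors stood below it, and 14101 genes were called higher and 301 lower in WT, against 5341 and 4442. On this scale Hbegf was also called, at 2.65 and 2.28. In bulk samples, fewer cells of a type and less RNA per cell cannot be told apart.

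**Figure D4:**
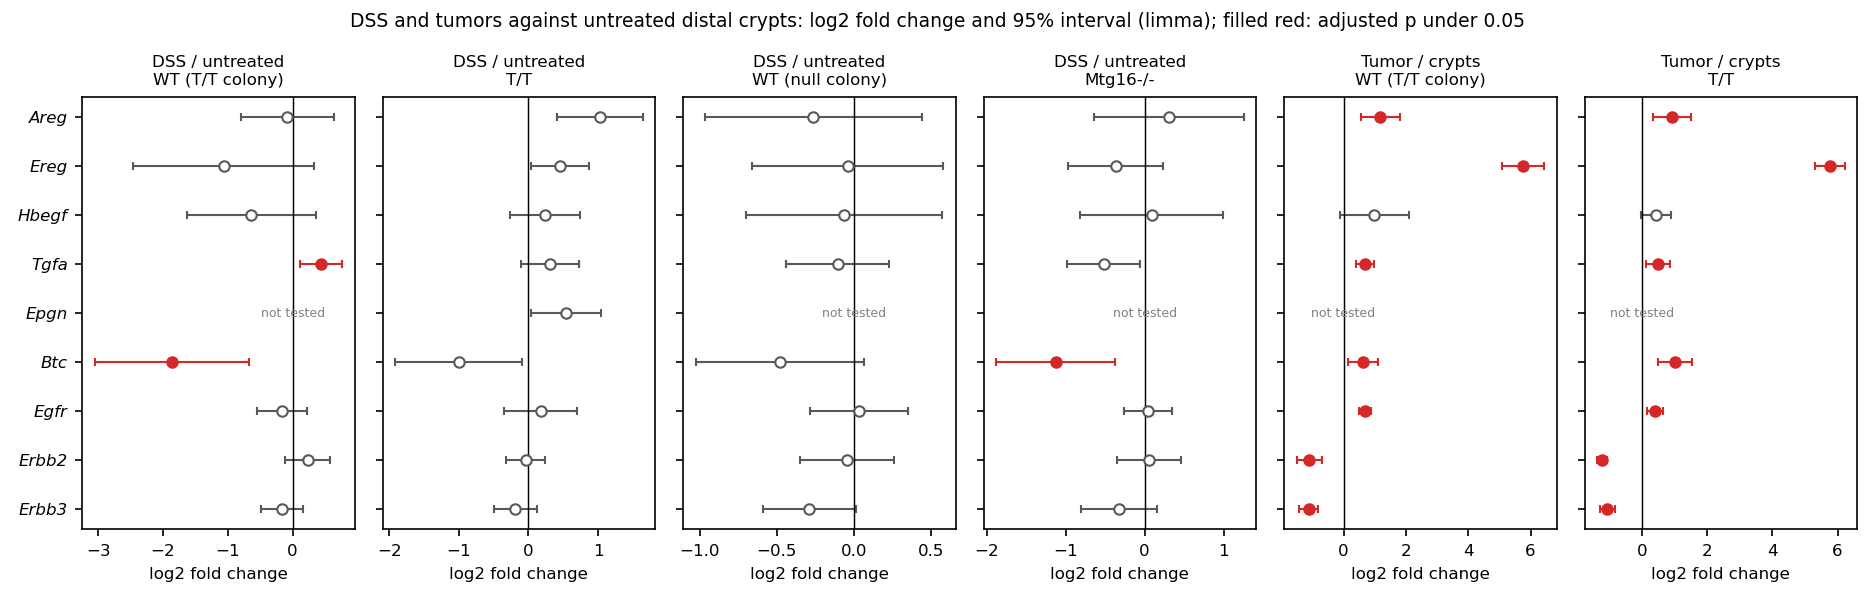
Log2 difference with its 95% confidence interval for each gene, in 4 comparisons of distal crypts after DSS with untreated ones and 2 of tumors with distal crypts, each panel with its own scale (filled red, adjusted p under 0.05). Ereg reached 5.76 in both tumor panels, and Erbb2 and Erbb3 were called lower there only. That direction turned relative to the colon epithelium markers, a scaling that by construction adds the epithelium's fall to each gene.

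Counts called in the pathway lists are read here against 64.4% of all genes in WT and 62.9% in Mtg16 T/T, and those of early response, feedback and shedding genes were near these shares. Of 17 early response genes 12 were higher and 0 lower in WT, and 11 higher and 2 lower in Mtg16 T/T, with medians of 1.93 and 1.82, against 0.06 and 0.13 over all genes. Ier3, an early target of ERK, rose from 5.61 to 112 RPM in WT and from 5.66 to 78.5 in Mtg16 T/T, while Fos fell in the latter (-0.66). Feedback inhibitors were called higher in 8 of 18 in each genotype and lower in 4 and 3. Dusp4, a phosphatase of ERK, had 87.4 RPM in WT tumors and 7.20 in crypts. Lrig1 and Lrig3, of a family of membrane proteins in which LRIG1 promotes ERBB receptor degradation, fell (Lrig3 from 103 to 18.8 and Lrig1 from 224 to 102.5 in WT). Of 12 shedding genes 7 rose and 2 fell in each genotype. Adam12 had 50.9 RPM in WT tumors and 0.153 in crypts, and Rhbdl2 had 38.0 and 104. Nrg1 had 36.7 ± 4.10 RPM in WT tumors and 26.9 ± 4.42 in Mtg16 T/T tumors (SD, n = 3 each), against 0.029 and 0.0914 in their crypts. Egf fell from 4.50 to 1.38 in WT (-1.42, adjusted p = 0.00023). Among 17 relay genes, 5 rose and 3 fell in WT and 3 rose and 7 fell in Mtg16 T/T, with Map2k1 lower in both (-1.26 and -1.27).

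The genes whose pattern was most like that of each member were taken by Pearson's r of log2(RPM + 1) over the 42 libraries, among 13114 genes with at least 1 RPM on average. These values are descriptions, since libraries share tissue, treatment and depth. For Areg they were Dusp6 (r = 0.83) and Spry4 (0.81), both feedback inhibitors of the pathway, and over the 36 crypt libraries alone r was 0.79 and 0.73 (0.79 and 0.72 without the library labelled distal Mtg16-/- replicate 2). For Hbegf they were the early response gene Egr1 (0.82, and 0.61 in crypts) and D030056L22Rik (0.77). For Ereg they were Tmem47 and Rasl11a (0.98 each, and 0.79 and 0.76 in crypts), where the 6 tumors stand far from all crypts. Tgfa went with Nfkb1 (0.89, and 0.88 in crypts) and Slc39a14 (0.88). Btc went with Zfp383 and Pde3b (0.95 each, and 0.90 and 0.91 in crypts), and Egfr with Lama3 (0.93) and Slc38a1 (0.91). Erbb2 went with Hectd3 and Fam234a (0.93 each) and Erbb3 with Cpt1a (0.89) and Slc9a2 (0.88). Among the members, Areg and Hbegf had r = 0.73 (0.63 in crypts) and Erbb2 and Erbb3 0.75 (0.49 in crypts). Areg ran opposite to Erbb2 (-0.68, and -0.59 in crypts) and Erbb3 (-0.71, and -0.60). Some relations rested on the tumors: Ereg and Egfr had 0.73 over all libraries and -0.16 in crypts, and Ereg and Erbb2 -0.87 and -0.22.

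**Figure D5:**
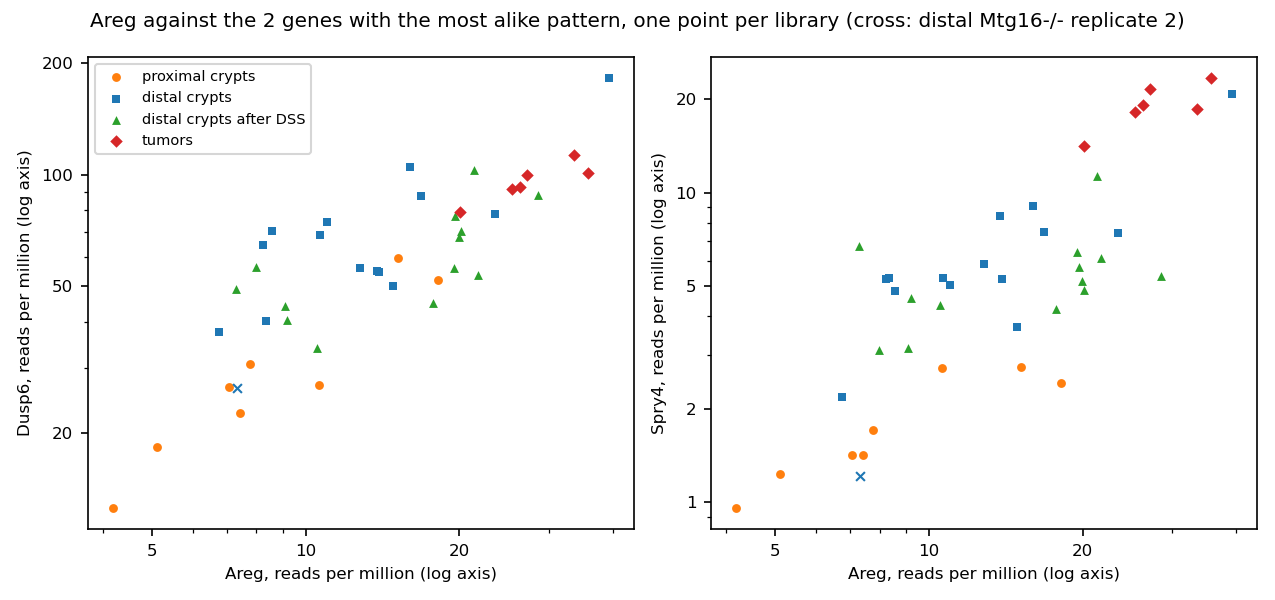
Areg against Dusp6 and Spry4, in RPM on log axes, with 1 point for each of the 42 libraries, marked by kind (cross, the library labelled distal Mtg16-/- replicate 2). Areg rose with both, with r = 0.83 and 0.81 over all libraries and 0.79 and 0.73 over the 36 crypt libraries.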

How the data were processed

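Libraries were made from poly(A) RNA. Per the submitters' processing notes, the authors trimmed reads with fastp 0.20.0, estimated transcript counts with Salmon 1.3.0 (mm10) and normalized them with DESeq2 1.26.0 in R 3.6.3. The deposited values are a signal unit: counts divided by a size factor per library, which the authors set separately in each of 9 tables. The tables also hold the authors' fold changes and p-values, which were not used. Whole reads were recovered for 51 of 59 columns, 38 of 42 libraries, where 100% of values were whole within 0.1. In 16 of 16 matches of a library between a pair of tables, both with recovered reads, the reads were identical. Proximal WT libraries could not be matched in this way, since no reads were recovered in their tables of genotypes. Levels over 42 libraries and sums of markers are RPM without further scaling, and for levels per kilobase the longest GENCODE M21 transcript was used.

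Within a table, log2(normalized count + 1) of genes with a mean of at least 10 was tested with limma 3.58.1 (R 4.3.3, trend, two-sided), with Benjamini-Hochberg adjusted p below 0.05. Across tables, recovered reads were scaled by TMM (edgeR 4.0.16) and log2(RPM + 0.5) was tested likewise for genes with a mean of at least 0.25 RPM. Scripts were tested on simulated data. Alternatives were edgeR's quasi-likelihood test and DESeq2 1.42.0 on recovered reads, another pseudocount, no filter, upper-quartile scaling, a replicate block and leaving out single libraries. A fit with the dependence on transcript length taken out library by library, the distal Mtg16-/- fits without replicate 3 and without replicate 2 (the library at proximal segment levels, also left out of the DSS comparison, the differences of effects, the correlations and the order of conditions) and scaling to colon epithelium markers were added after the data were seen.

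The members and lists were chosen with earlier results of these data known. Named beside the members were at most 2 called genes per direction and list with the largest change, and the 2 genes most correlated with each member. Same-numbered Mtg16-/- and WT libraries after DSS deviated together (3 pairs, r from 0.317 to 0.554), so there the replicate block was read as a pairing, and the hint comes from the data.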

Additional observations from a re-analysis of the deposited data

Results flagged for a closer look

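In 7 of 54 tests of a gene in a group of 4 to 7 libraries, the highest or lowest library stood apart from the others by more than Dixon's 95% criterion, where chance gives about 1 in 20. In untreated distal Mtg16-/- crypts, Ereg was 0.284 RPM in replicate 4, where the others had 0.735 to 0.779, and Btc was 4.37 RPM in replicate 2, where the others had 8.95 to 9.84. The latter library, labelled distal, had its segment genes at proximal levels, and Btc was 3.11 to 4.82 RPM in proximal crypts. In untreated distal Mtg16 T/T crypts, Areg was 16.8 RPM in replicate 1 (others 8.25 to 8.58), Tgfa was 49.7 in replicate 4 (others 35.0 to 37.3) and Erbb2 was 236 in replicate 2 (others 243 to 244). Among the 4 proximal WT libraries of both colonies, Erbb3 was 283 RPM in replicate 1 of the null colony, where the others had 362 to 378. Among the 7 untreated distal WT libraries of both colonies, Hbegf was 32.0 RPM in replicate 1 of the T/T colony, where the others had 9.84 to 19.2. The Mtg16 T/T library with high Areg also had the group's lowest trend with transcript length, -0.177 log2 units per doubling, where the others had 0.00233 to 0.0706, and its part was not tested.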

How the results depend on the processing

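Over 40 gene values (those with an unadjusted p under 0.05 or called in any fit, and 2 of Areg in Mtg16-/- crypts added after their values were seen) and 575 settings, 511 kept their direction and side of the threshold, 41 fell below it, 14 passed it and 9 reversed. The other 78 values of the members, called in no fit, turned in sign in 92 of 1013 settings. The reversals were Areg in distal Mtg16-/- against WT crypts (-0.023 within library names opening with 5094), Areg after DSS in Mtg16-/- crypts (-0.096 to 0.67 without single libraries), Egfr after DSS in WT crypts of the T/T colony (0.024 with upper-quartile scaling and 0.71 with the length trend removed), Egfr in Mtg16 T/T tumors (-0.082 with the length trend removed), and Erbb2 (0.56 in WT and 0.62 in Mtg16 T/T) and Erbb3 (0.55 and 0.78) in tumors relative to the colon epithelium list. By construction, that last scaling adds the epithelium's fall to each gene. For the others the cause was not tested.

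Counts of members called moved as follows. For distal against proximal crypts, 5 became 1 within the 4 libraries of 1 name number, where Ereg kept -2.04 (adjusted p = 0.0775). With the length trend removed, 5 became 4 there, 2 became 3 for DSS in WT crypts of the T/T colony and 7 became 5 for Mtg16 T/T tumors. Relative to the colon epithelium list, 7 became 8 in both tumor comparisons. For DSS in WT crypts of the T/T colony, 2 became 1 with no filter, with edgeR and with the replicate block. For DSS in Mtg16-/- crypts, 1 became 0 with no filter and with the replicate block. With DESeq2, 0 became 1 for Mtg16 T/T against WT after DSS and for DSS in Mtg16 T/T crypts. Leaving out single libraries gave 3 to 6 for the segments, 0 to 4 for DSS in WT crypts of the T/T colony, 6 to 7 for WT tumors, 5 to 8 for Mtg16 T/T tumors, and 0 to 1 for Mtg16-/- against WT after DSS and for DSS in the other 3 genotype groups. It gave 0 in each fit of the other 6 comparisons. The replicate block changed no other count, and outside Mtg16-/- against WT after DSS the numbers were read only as names of libraries (lowest correlation of deviations -0.766, highest 0.536). For the segments of the null colony, equal numbers join distal libraries named 5094 with proximal ones named 4149, so a match within 1 name number was not checked. In Mtg16-/- against WT after DSS, where replicate numbers were read as pairs, the blocked count was 0 and Areg had 1.00 (adjusted p = 0.092). Ereg and Epgn in distal crypts rest on few reads, which limits their precision, and 2 libraries a group limit the proximal comparisons.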
